A study of Mus musculus with 34 samples.

Results

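Cohesin sites called only in CTCF-deficient dendritic cells numbered 6080 of the 29965 SMC1 peaks in unstimulated CTCF-KO cells, or 20.3%. They were chosen by the peak lists themselves: a KO SMC1 peak was taken as gained when it overlapped no SMC1 peak of CTCF-WT cells, either without or with LPS. Gained is thus a name for the rule, and the absence of an SMC1 peak in WT is not a finding. The other 23885 KO peaks are called shared. The cells were bone marrow-derived dendritic cells (BMDCs) of C57BL/6 mice aged 8 weeks, cultured with GM-CSF for 6 days. WT cells carried CreER, a Cre recombinase that tamoxifen switches on, and KO cells carried CreER;CTCF fl/fl. Both genotypes received 4-OH tamoxifen on the first day of culture only. CreER came from the Rosa26 locus, which is active in most cell types, so that the deletion was not limited to dendritic cells, and CD11c+ cells were selected from those afloat. Stimulated cells (WTLPS, KOLPS) were treated for 3 h with 100 ng/ml of LPS, which bacteria shed and TLR4 senses, and cells for STAT5 received GM-CSF again for 15 min. Each antibody and condition has 1 peak list and no replicate, so no test between conditions was possible. Intervals in parentheses are 95% and cover counting error over sites only.

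Cohesin is a ring of SMC1, SMC3, RAD21 and a STAG subunit that holds DNA within its ring and extrudes loops. CTCF bound to DNA halts the moving ring, so that cohesin collects at CTCF sites, and further cohesin is found at active promoters and enhancers, where it is loaded or slowed by other proteins. H3K27ac marks active promoters and enhancers, H3K4me1 enhancers, H3K4me3 promoters and H3K27me3 repressed chromatin. STAT5 is the transcription factor that GM-CSF activates. H3K4me3 peaks lay at the promoters of all 12 dendritic cell markers examined, among them Itgax, Zbtb46 and Flt3, in each of the 4 conditions, and H3K27ac at none of 12 markers of other cells. H3K4me3 was however present at 5 of those 12 in every condition, namely Ebf1, Col1a1, Epcam, Gata3 and Klf1.

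The strongest gained sites lay in one place. All of the 50 gained sites with the highest −log10 q, the score of the peak caller, and 86 of the first 100, lay in the immunoglobulin heavy chain (Igh) locus. The 4 strongest of the named sites that hold a searched motif are shown here as the 101 bases around their summits (GRCm38, plus strand), with the matched letters in capitals, the site near Ighv8-12 being the one with the highest fold of all gained sites.
Near Ighv8-12, chr12:115641708-115641808: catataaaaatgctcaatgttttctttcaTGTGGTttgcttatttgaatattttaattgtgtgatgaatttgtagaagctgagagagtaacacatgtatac
Ighv8-11 promoter, chr12:115569874-115569974: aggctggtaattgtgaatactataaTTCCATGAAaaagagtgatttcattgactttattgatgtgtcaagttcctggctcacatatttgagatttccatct
Ighv1-66 promoter, chr12:115594129-115594229: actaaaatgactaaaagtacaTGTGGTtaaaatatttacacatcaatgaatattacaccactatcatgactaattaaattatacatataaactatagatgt
Ighv1-66 promoter, chr12:115595837-115595937: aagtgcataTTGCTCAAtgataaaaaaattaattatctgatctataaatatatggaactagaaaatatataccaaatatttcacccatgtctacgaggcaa
The capitals mark a RUNX motif (TGTGGT) in the window near Ighv8-12 and the upper one of Ighv1-66, a STAT5 motif (TTCNNNGAA) in that of Ighv8-11 and a C/EBP motif (TTGCNNAA) in the lower one of Ighv1-66. Both strands were searched and each motif was counted on its own, so that 1 stretch could count for several. Over all KO SMC1 windows of this length, RUNX matched 12.4%, STAT5 3.6% and C/EBP 6.72%, so that such matches are common. A match describes letters and does not show binding.

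The strongest gained sites outside Igh that hold a motif are shown for contrast, chosen after the Igh sites had been seen.
Ltbp1 intron, chr17:75175191-75175291: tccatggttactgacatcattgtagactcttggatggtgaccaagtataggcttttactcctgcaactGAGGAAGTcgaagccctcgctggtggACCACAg
Near Lhx2, chr2:38418079-38418179: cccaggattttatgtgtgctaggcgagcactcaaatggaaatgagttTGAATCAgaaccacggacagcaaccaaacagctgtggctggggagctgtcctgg
Agbl4 intron, chr4:110665169-110665269: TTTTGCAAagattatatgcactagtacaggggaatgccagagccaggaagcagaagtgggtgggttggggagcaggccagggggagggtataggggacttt
Slc39a3 promoter, chr10:81037401-81037501: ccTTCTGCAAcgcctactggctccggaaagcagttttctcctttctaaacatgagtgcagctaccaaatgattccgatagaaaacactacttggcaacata
In the Ltbp1 window, PU.1 (GAGGAAGT) and RUNX matched. AP-1 (TGANTCA) matched near Lhx2, and C/EBP matched in the windows of Agbl4 and Slc39a3. PU.1 matched 5.09% and AP-1 7.68% of all KO SMC1 windows. None of the 8 windows held a match to the CTCF motif. It matched 1.56% of all KO SMC1 windows, a share at which a match among 8 is unlikely.

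Most gained sites were weak. The median fold enrichment was 3.76 at gained and 4.5 at shared sites, the median −log10 p 8.55 and 12.1, and the median width 285 and 433 bp. The KO SMC1 list ends at a −log10 p of 7.01, which at the background of 5.34 fragments per base means at least 21 fragments at the summit. The background came from the peaks' own fold and −log10 p and was 5.4 in WT, 5.76 in WTLPS and 4.5 in KOLPS. Of the 5201 gained sites outside Igh at this background, 76.4% held 21 to 24 fragments, within 3 of the fewest that could be called. Among shared sites 31.3% did, and among gained sites in Igh 26.6%. The rule thus turns at most places on a few fragments. Just inside it lay a KO peak in an intron of Tfec, 3 bp from the nearest WT or WTLPS SMC1 peak, with a fold of 3.79 and 23 fragments. Just outside lay a KO peak at the Uxs1 promoter, with the same fold and 23 fragments, which shared 1 bp with a WT peak. The median gap from a gained site to the nearest WT or WTLPS SMC1 peak was 4922 bp, and 17.9% had one within 1 kb.

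**Figure D1:**
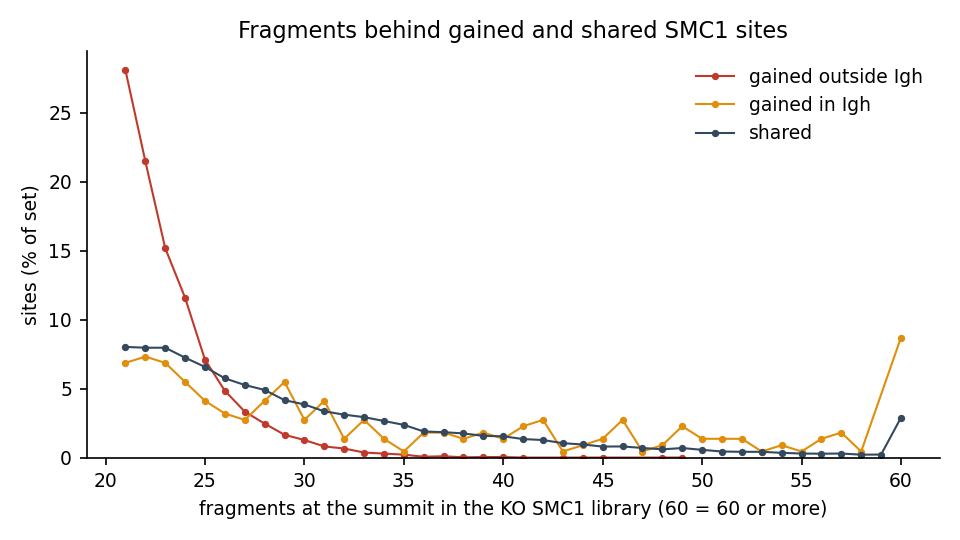
Fragments at the summit of SMC1 peaks in KO cells (x axis, values of 60 or more drawn at 60) against the share of sites (y axis, percent of each set), for sites at the genome-wide background. Gained sites outside Igh crowd at 21 to 24 fragments, while gained sites in Igh and shared sites reach 60 or more.

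In the Igh locus, SMC1 peaks were more numerous in KO than in WT, with and without LPS. The locus holds the V, D, J and constant segments of the antibody heavy chain, which B cells join by recombination. Here it was taken as chromosome 12, 113254830 to 116010093, the span of 233 annotated immunoglobulin genes, with 10 kb added to either side. WT had 89 SMC1 peaks there and WTLPS 80, against 285 in KO and 277 in KOLPS. Of the 285 KO peaks, 251 were gained (88.1%), which is 4.13% of all gained sites. Of the 251 gained sites, 210 lay in the 50% of the locus with the higher coordinates, toward the distal V genes. Most WT SMC1 peaks of the locus lay there as well. Within 2.5 kb of the start of an immunoglobulin gene lay 111 gained sites. The share of the locus so close to such a start was not counted. Of the 89 WT SMC1 peaks of the locus, 31 (34.8%) overlapped a KO peak. Over the genome, 63.1% of the 63638 WT SMC1 peaks overlapped neither a KO nor a KOLPS peak. The share that overlapped a KO peak can be no larger than the rest, so a low share was not particular to the locus.

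**Figure D2:**
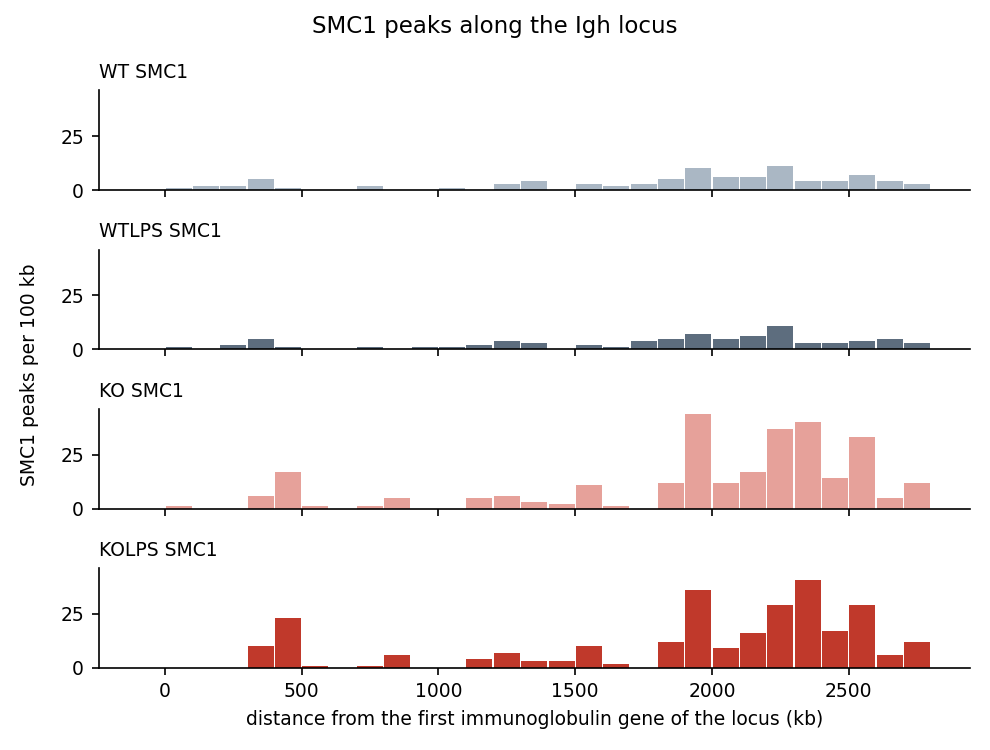
SMC1 peaks per 100 kb (y axis) against the distance from the first immunoglobulin gene of the Igh locus in kb (x axis), in 4 panels for WT, WTLPS, KO and KOLPS. KO and KOLPS bars are tall in the same stretches, mostly beyond 1800 kb, where WT and WTLPS have at most 11 peaks per bar.

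The site with the highest fold lay between V genes, 6629 bp from the start of Ighv8-12 (chromosome 12, 115640223 to 115642206). Its SMC1 fold was 20 in KO, with 126 fragments, and 17.5 in KOLPS. The same place carried CTCF peaks of fold 17.5 in KO and 16.8 in KOLPS and a STAT5 peak of fold 20 in KO. Every KO and KOLPS list had a peak there, and no WT or WTLPS list did. The KO folds were 6.86 for H3K27ac, 5.05 for H3K27me3, 4.48 for H3K4me1 and 5 for H3K4me3. At the Ighv1-67 promoter, the SMC1 fold was 19.2 in KO and 16.2 in KOLPS, with a WT SMC1 peak 242 bp away. Unlike the first site, it overlapped a CTCF peak in WT (fold 25.5) as well as in KO (fold 18.2). Every KO and KOLPS list had a peak there too. At the site 4443 bp from the start of Ighv1-55 (chromosome 12, 115203538 to 115204538), the SMC1 fold was 16.8 in KO and 14.4 in KOLPS. Its CTCF fold was 17.5 and its STAT5 fold 13.3 in KO, without a WT peak of either. H3K27ac (6.86), H3K27me3 (4.68) and H3K4me1 (4.55) peaks also lay there in KO, and no H3K4me3 peak. A broad site at Ighv1-68 (chromosome 12, 115612296 to 115619021) had SMC1 folds of 15 in KO and 8.13 in KOLPS. Of the 12 gained sites with the highest −log10 q at places with peaks in fewer than 15 of the 30 lists, all in the locus, 12 had an SMC1 peak in KOLPS, and 11 a CTCF peak and 11 a STAT5 peak in KO. None of the 12 had a CTCF or STAT5 peak in WT.

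Over all 251 gained sites of the locus, 177 (70.5%, 64.6 to 75.8%) overlapped a KOLPS SMC1 peak. CTCF peaks lay at 162 in KO (64.5%) and 30 in WT (12%), beside 12.7% and 19.4% of all KO SMC1 peaks. STAT5 peaks lay at 118 in KO (47%) and 2 in WT, beside 11.2% and 13.7% of all. H3K27ac peaks lay at 45 in KO (17.9%) and 2 in WT, beside 56.3% and 58.3% of all. KO shares were thus above those over all peaks for CTCF and STAT5 and below for H3K27ac. The counts in KO and WT were 218 (86.9%) and 85 (33.9%) for H3K4me1, beside 75.9% and 76.3% of all. For H3K4me3 they were 10 (3.98%) and 0, beside 28.9% and 29.7%. H3K27me3 peaks lay at 138 of these sites in KO (55%) and 11 in WT (4.38%), beside 3.65% and 3.29% of all. Marks of active and of repressed chromatin both had more peaks there in KO than in WT. Against all KO SMC1 peaks, the KO share was higher for H3K27me3 and H3K4me1 and lower for H3K4me3. A CTCF motif matched 0 of the 251 SMC1 summit windows (interval up to 1.51%), beside only 1.56% of all KO SMC1 windows.

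Across the whole locus, WT had 164 CTCF peaks and WTLPS 143, against 251 in KO and 255 in KOLPS, while the whole CTCF list held 60537 peaks in WT and 20151 in KO. STAT5 peaks numbered 5 in WT and 188 in KO, H3K27ac peaks 11, 9, 100 and 111 in the order of the CTCF counts, and H3K4me3 peaks 3, 3, 24 and 41. For H3K4me1, 42 of the 100 strongest KO peaks of the genome lay here, against 1 of 100 in WT. H3K27me3 peaks numbered 65 in WT and 184 in KO. Every antibody thus had more peaks in KO than in WT in the locus. The SMC1 background recovered was the genome-wide value at 218 of the 251 gained sites (86.9%), against 91.3% of shared sites. No recovered value lay below it, so a lower local background would not show. The part of background, here or in the other lists, was not tested. B lineage markers, listed after the Igh sites had been seen, carried H3K4me3 at 7 of 15 promoters in WT and 8 in KO. For H3K27ac the count was 5 in WT and KO and 6 in KOLPS. Vpreb1, of the pre-B cell receptor, and Prdm1, Xbp1 and Irf4, which dendritic cells also use, carried both marks in all 4 conditions. Rag2, of the recombinase that joins V segments, had H3K4me3 in KO alone, and Ms4a1, a B cell surface protein, had H3K27ac in KOLPS alone. Cd79a and Cd79b, the signalling chains of the B cell receptor, had neither mark in any condition. What set the locus apart was not tested, and genotype and the particular mice or cultures of each genotype cannot be told apart.

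**Figure D3:**
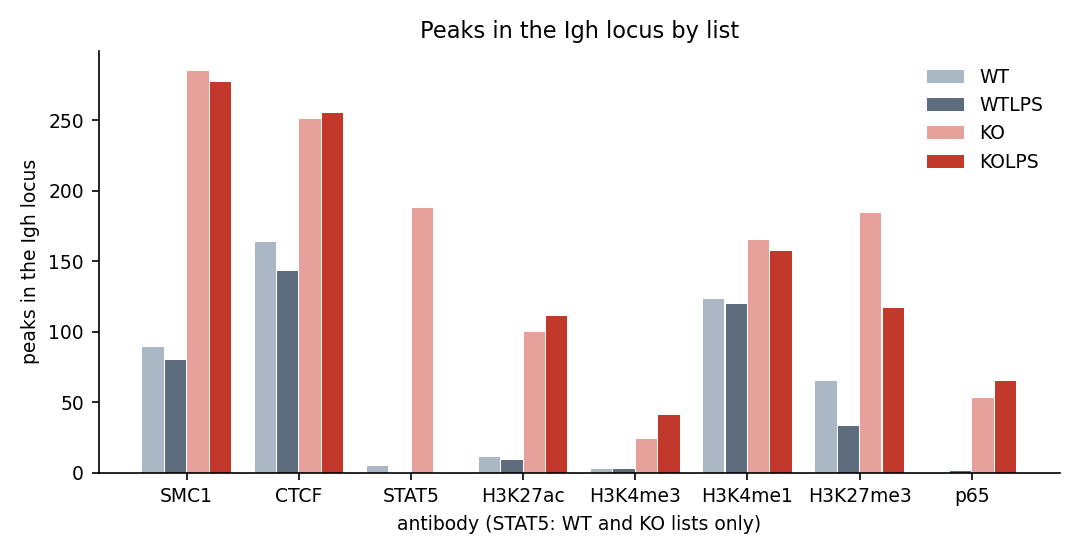
Number of peaks in the Igh locus (y axis, from 0) in each of the 30 lists, by antibody (x axis) and condition (bar colour). KO and KOLPS bars exceed WT and WTLPS bars for every antibody, with 285 and 277 SMC1 peaks against 89 and 80.

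Since the locus would dominate any ranking, the 5829 gained sites elsewhere are described apart, a choice made after the data had been seen. By place, 1825 of them (31.3%, 30.1 to 32.5%) lay at a promoter, within 2.5 kb of a gene's start, against 25.6% (25.1 to 26.2%) of shared sites and 27% of all KO SMC1 peaks. The difference was 5.69 percentage points (4.38 to 7.01). With Igh included the share of gained sites was 32.2%. A further 7.55% of gained sites outside Igh lay in exons, 34% in introns and 27.1% outside genes. The share at promoters was higher among stronger sites. It was 27.5% (25.4 to 29.8%) at a −log10 p of 7 to 7.5 and 53.8% (44.3 to 63%) at 15 to 20, while shared sites had 25.4% and 25.2%.

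Most of these promoters carried marks of activity in both genotypes. Over all 1825 promoter sites, 77.2% (75.2 to 79%) overlapped an H3K4me3 peak in WT and 78% (76.1 to 79.9%) in KO, above the 69.5% and 69.4% of shared promoter sites. H3K27ac lay at 67.4% (65.2 to 69.5%) and 68.9% (66.8 to 71%), below the 77.7% and 76.5% of shared promoter sites. Of the gained promoter sites 80.8% lay at protein-coding genes, against 70.5% of the shared ones. The part of this in the differences was not tested. Of the 1474 gained sites at protein-coding promoters, 89.1% overlapped an H3K4me3 peak in WT and 89.5% in KO, and 75% and 77.2% an H3K27ac peak. They lay at 1551 genes, 7.07% of 21938, at a median of 548 bp from the nearest start. The marks at shared sites of protein-coding promoters were not counted apart. Among protein-coding promoters, the highest fold was at Cct8 (chromosome 16, 87495791 to 87496734), which encodes a subunit of the chaperonin that folds actin and tubulin. Its SMC1 fold was 7.26 in KO and 5.46 in KOLPS, its H3K4me3 fold was 48.4 in WT and 34.1 in KO, and a CTCF peak was called in KO (4.3) and not in WT. Ints10, of the Integrator complex that ends transcription of small nuclear RNAs, had SMC1 folds of 6.94 and 4 in KO and KOLPS, and Med6, a Mediator subunit, 6.15 in KO and no KOLPS peak. Cox4i1 (fold 6.31 in KO), a subunit of cytochrome c oxidase, and Chchd5 (6.15 in KO and 5.46 in KOLPS), a mitochondrial protein, were similar. Of the 10 sites with the highest fold at protein-coding promoters, 7 carried H3K4me3 in WT and the same number in KO, and 5 had an SMC1 peak in KOLPS. By contrast, the sites at Npas4, an activity-dependent factor of neurons (fold 7.1), and at Cacng2, a regulator of neuronal glutamate receptors (6.47), overlapped no other peak in any of the 30 lists.

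Strong sites away from promoters differed in the marks they carried. An intronic site of Ltbp1, which encodes a binding protein of latent TGF-β, had SMC1 folds of 7.89 in KO and 6.37 in KOLPS and H3K4me1 in KO and KOLPS only (2.81 and 3.32). A site 67370 bp from Lhx2, a homeobox gene, had SMC1 folds of 7.08 and 5.15 and no other peak. The site in an intron of Sfi1 stood on a background of 61.8 fragments, with 172 fragments and a fold of 2.75, and had H3K4me1 (1.85) and STAT5 (2.65) in KO and no KOLPS SMC1 peak. An intronic site shared by Hacl1, a peroxisomal lyase, and Gm49387 had SMC1 folds of 7.64 and 5.1 and H3K4me1 in all 4 conditions. The Skint5 site had 6.47 and 5.1, with CTCF (6.08) and H3K4me1 (2.63) in KO. In an intron of Agbl4, SMC1 folds were 6.47 in KO and 3.64 in KOLPS, with H3K27ac in KO only (fold 4). Of the 12 sites outside Igh with the highest −log10 q, promoters included, 7 had an SMC1 peak in KOLPS.

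CTCF was rare at gained sites outside Igh. A WT CTCF peak overlapped 4.56% (4.06 to 5.13%) of them, against 23.2% (22.6 to 23.7%) of shared sites and 19.4% of all KO SMC1 peaks. A KO CTCF peak overlapped 2.93% (2.53 to 3.4%), against 14.6% of shared sites and 12.7% of all. In pairs of the same sites, 138 had a CTCF peak in KO only and 233 in WT only, a difference of -1.63 percentage points (-2.28 to -0.983). With Igh included, the KO share was 5.48% and the WT share 4.87%, which reverses their order. The CTCF motif matched 1 of 5829 summit windows, against 465 of the 23885 shared ones (1.95%). By the rule, gained sites avoid WT and WTLPS SMC1 peaks while shared sites overlap them, and cohesin collects at CTCF sites. The low shares of CTCF peaks and motifs may thus follow in part from the rule, to an extent that was not tested. Within 5 kb of a WT CTCF peak without a KO counterpart lay 31.3% of gained sites outside Igh and 38.4% of shared sites. These shares include sites with no gap to such a peak, 3.48% and 8.58%. The same limit of the rule applies, so closeness to the CTCF peaks that KO cells lacked cannot be read from them.

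STAT5 peaks were as rare. Outside Igh they overlapped 3.19% (2.77 to 3.67%) of gained sites in WT and 3.11% (2.69 to 3.58%) in KO, a difference of -0.0858 points (-0.41 to 0.238). Shared sites had 16.4% and 12.8%, and all KO SMC1 peaks 13.7% and 11.2%. Shared sites weighted to the strengths of the gained ones, by groups of −log10 p, had 7.13% in KO. The part of the rule in the gap for STAT5, and in those for the marks below, was not tested. With Igh the gained shares were 3.09% and 4.92%, with 118 of the 299 KO sites in the locus.

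H3K27ac was present at fewer gained than shared sites, in both genotypes. In WT, 36.6% (35.3 to 37.8%) of the gained sites outside Igh overlapped an H3K27ac peak, against 64.3% of shared sites and 58.3% of all KO SMC1 peaks. In KO it was 34% (32.8 to 35.2%), against 62.1% and 56.3%. Shared sites weighted to the strengths of the gained ones had 56% in WT and 51.1% in KO, still above the gained shares. The KO minus WT difference at gained sites was -2.61 points (-3.6 to -1.62): 358 sites had the peak in KO only, 510 in WT only and 1622 in both. The order turned at stronger sites: at a −log10 p of 15 to 20, H3K27ac lay at 50% (40.6 to 59.4%) in WT and 59.4% (49.9 to 68.3%) in KO, against 30.9% and 27.1% at 7 to 7.5. The H3K27ac background was 0.748 fragments per base in KO and 1.17 in WT, and its part in the difference was not tested. With Igh included the shares were 35.1% in WT and 33.3% in KO. H3K4me1 covered 54% in WT and 53.4% in KO (-0.635 points, -1.56 to 0.291), against 82.2% and 81.3% of shared sites and 76.3% and 75.9% of all. With the same weighting, shared sites had 77.7% and 76.7%. H3K4me3 covered 29.3% (28.2 to 30.5%) in WT and 29.9% (28.7 to 31.1%) in KO. Here shared sites were alike, at 30.1% and 28.9%, and all KO SMC1 peaks stood at 29.7% and 28.9%. The KO minus WT difference for H3K4me3 was 0.566 points (0.156 to 0.976).

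**Figure D4:**
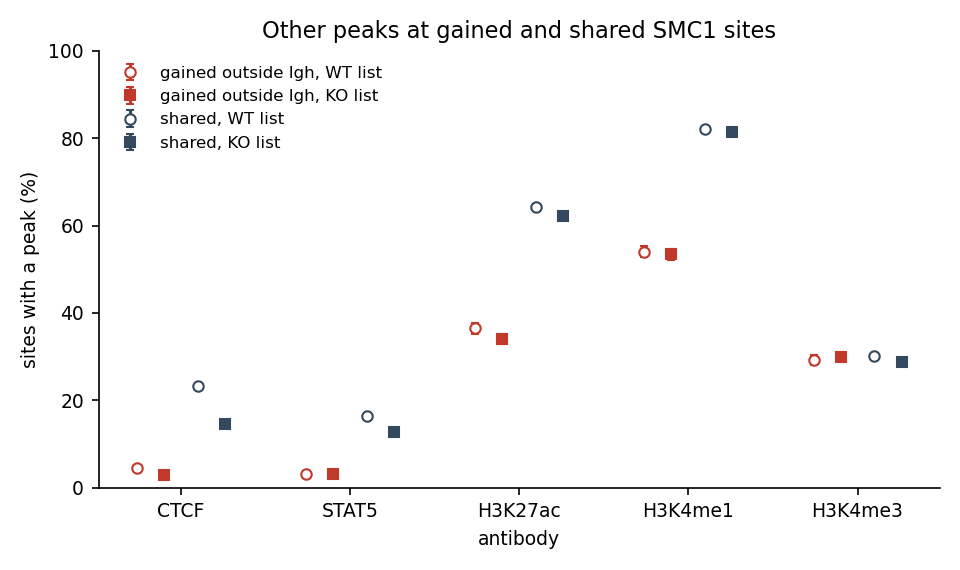
Share of SMC1 sites with a peak of each antibody (y axis, percent, 95% interval as bars) for gained sites outside Igh in red and shared sites in dark blue, with WT lists as open circles and KO lists as filled squares. Gained sites lie below shared ones for CTCF, STAT5, H3K27ac and H3K4me1 and beside them for H3K4me3.

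Away from promoters, 19.6% (18.4 to 20.9%) of 4004 gained sites had both H3K4me1 and H3K27ac in WT, the pattern of active enhancers, against 57.6% of shared sites. H3K4me1 without H3K27ac lay at 39.7% and 30.8%, and neither mark at 37.7% and 9.58%. In KO the gained shares were 15.6%, 43.1% and 38.9%. No peak of CTCF, STAT5, H3K27ac, H3K4me1, H3K4me3 or H3K27me3 in WT or KO lay at 969 of the 4004 (24.2%), against 1.63% of shared sites. H3K27me3 overlapped 6.4% of gained sites outside Igh in WT and 4.99% in KO, and 2.52% and 2.78% of shared sites (all KO SMC1 peaks 3.29% and 3.65%). Summit windows away from promoters had a median GC content of 33.7%, against 45.5% at shared sites, and 22.2% of them were mostly repeat-masked, against 11.9%. At promoters the GC content was 48.5% for both.

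Motifs of myeloid factors were less frequent at gained than at shared summits away from promoters. PU.1, the factor that defines myeloid cells, matched 2.87% (2.4 to 3.44%) of gained windows and 6.13% (5.79 to 6.49%) of shared ones, with 0.649% and 0.704% in windows 1 kb away. AP-1 matched 5.47% and 9.22% (2.77% and 3.12% away), and RUNX 7.72% and 14.8% (7.39% and 7.61%). At gained sites, RUNX and STAT5 (3.2%, with 3.3% away) hardly differed from the flanks. Gained and shared windows also differ in GC content, as given above, and its part was not tested.

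Since SMC1 in KOLPS took no part in the rule, it offers the one further look at the same genotype. An SMC1 peak lay in KOLPS at 13.3% (12.5 to 14.2%) of all gained sites and at 10.8% (10.1 to 11.7%) outside Igh, against 52.2% (51.6 to 52.9%) of shared sites and 44.3% of all KO SMC1 peaks. The difference outside Igh was -41.4 points (-42.4 to -40.3). Shared sites weighted to the strengths of the gained ones were kept at 29.2%, still above the gained share. Shared sites had, by the rule, an SMC1 peak in WT or WTLPS and gained sites had none, which weighting by KO strength does not remove. How much of the difference comes from this was not tested. In the weakest group, at a −log10 p of 7 to 7.5, 5.5% (4.49 to 6.73%) of gained and 19.8% (18.1 to 21.6%) of shared sites were kept. At 15 to 20 it was 45.3% (36.1 to 54.8%) and 70.8% (69.3 to 72.3%). Kept sites outside Igh lay more often at promoters (45.4% of 632, 41.6 to 49.3%) than sites not kept (29.6% of 5197, 28.4 to 30.8%), and had H3K27ac in KO more often (49.7% and 32.1%). Their median folds were 3.94 and 3.63. Seen from KOLPS, 2239 of 17241 SMC1 peaks overlapped no WT or WTLPS peak, and 36.7% of them overlapped a gained KO site, or 31.5% outside Igh. Effects of LPS and differences between the lists cannot be told apart here.

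**Figure D5:**
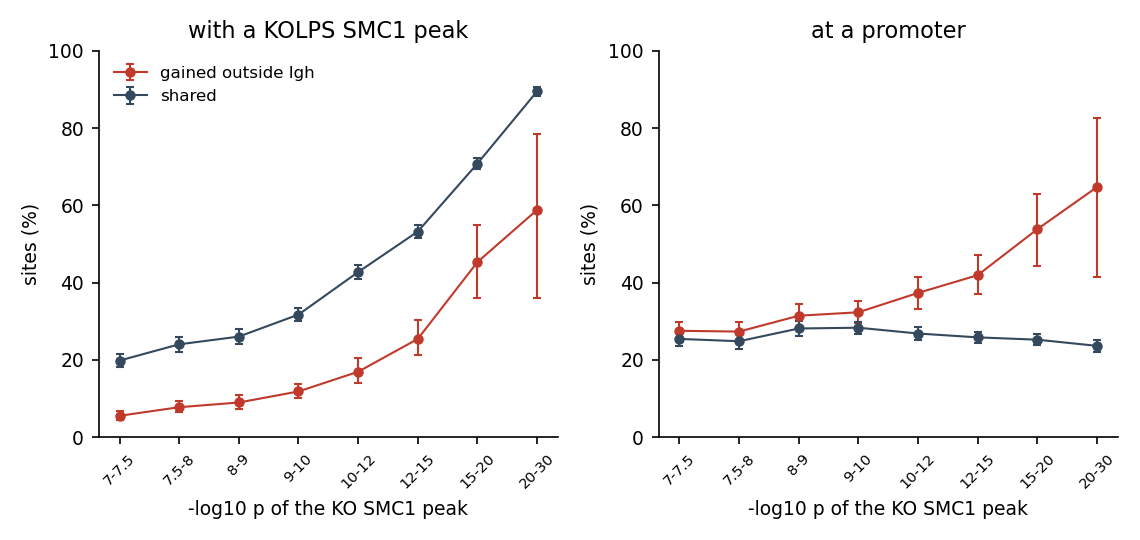
Share of sites (y axis, percent, 95% interval as bars) with an SMC1 peak in KOLPS (left) and at a promoter (right) against the −log10 p of the KO SMC1 peak (x axis, groups), for gained sites outside Igh in red and shared sites in dark blue. Retention rises with strength in both sets and is lower for gained sites, and the share at promoters rises with strength among gained sites alone; a group of 3 gained sites above 30 is not drawn.

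Sites with H3K27ac in KO but in neither WT nor WTLPS were few, 276 of 5829 (4.73%), against 4.86% of shared sites. Of these 276, 37 also had SMC1 in KOLPS. By fold they were led by the Ints10 promoter and the Agbl4 intron described above. Next came a site at Gm25289 (SMC1 folds 6 in KO and 5.46 in KOLPS) and one 17893 bp from Prpf18, a splicing factor (5.68 and 4.91). At Slc39a3, a zinc transporter, SMC1 folds were 5.62 and 5.03 and H3K27ac folds 4.51 in KO and 5.83 in KOLPS, with H3K4me3 in all 4 conditions. Yipf2 and Timm29, which share a promoter, had folds of 5.28 and 5.77. An intronic site of Exoc4, of the exocyst that tethers secretory vesicles, had 5.05 and 4.19. With Igh included, the 10 sites of this kind with the highest fold all lay in the locus.

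Genes of pathways at work in these cells were examined next. Over 8 lists of 218 genes, 20 (9.17%) had a gained site at the promoter, beside the 7.07% of all protein-coding genes. Another count, within 10 kb of the gene, gave 34.9%, beside 19.5%, and does not allow for gene length. Of the 23 sites concerned, those of Chst3 and Aldh1a2 included, 20 overlapped H3K4me3 in WT and 20 in KO, 19 and 19 H3K27ac, and 5 had SMC1 in KOLPS. For GM-CSF signalling, 2 of 26 genes had one: Socs1, which dampens JAK-STAT signals (fold 3.45), and Mcl1, a survival factor (3.94). At the Socs1 site a STAT5 peak lay in WT (fold 7.3) and none in KO. For TLR4 and NF-κB signalling there were 4 of 28. They were Traf6, the ubiquitin ligase downstream of TLR4 (fold 3.79 in KO and 4.73 in KOLPS), the adaptor Tirap (4.1), and the IκB family members Nfkbie (3.79) and Nfkbiz (3.47). At Traf6 the STAT5 fold was 15 in WT and 9.98 in KO, and the nearest WT or WTLPS SMC1 peak was 13265 bp away.

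Of 34 cytokine and chemokine genes, 21 had a shared site at the promoter, a count not set against all genes. None of the 34 had a gained site there, beside 7.07% of all protein-coding genes, a share at which few are expected. Among 34 myeloid transcription factors there were 2, Atf3 (fold 3.63), induced by stress, and Klf4 (3.63), which favours monocytes. Among 24 genes of antigen presentation there were 2, at neighbouring genes of the class I pathway: Psmb8 of the immunoproteasome (3.49 in KO, 4.16 in KOLPS) and the peptide transporter Tap2 (3.06 and 3.41). Lipid and macrophage genes gave 4 of 30. Ctsl, a lysosomal protease, had folds of 5.21 in KO and 4.19 in KOLPS. Trem2, a lipid receptor, had 4.26, Csf1r, the receptor of M-CSF, 3.47 and Olr1, which binds oxidised LDL, 3.63, all without a KOLPS peak. Adhesion genes gave 3 of 26, Itgav (3.79), Vcam1 (3.94) and Cd9 (3.79). Of 16 genes of cohesin itself and its regulators, 3 had one: Smc3 and Stag1, subunits of the complex (3.63 at each), and Cdca5, which protects bound cohesin (3.86). All 23 sites held between 21 and 33 fragments.

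Chst3 and Aldh1a2, a sulfotransferase of chondroitin and an enzyme that makes retinoic acid, are genes the study had chosen on these cells, so they give no independent count. The Chst3 site (chromosome 10, 60219858 to 60220195), 731 bp from the start, had a fold of 4.58 in KO and no KOLPS peak, and the nearest WT or WTLPS SMC1 peak lay 12360 bp away. H3K27ac folds there were 5.52 in WT and 18.9 in KO, and with LPS 4.55 and 10. H3K4me3 folds were 10.3 in WT and 23.2 in KO, and with LPS 12.5 and 16.5. Aldh1a2 had 2 gained sites, of which the stronger (chromosome 9, 71216503 to 71217576) had folds of 5.36 in KO and 4.19 in KOLPS. It lay 2366 bp from a WT or WTLPS SMC1 peak. H3K27ac there was called in WTLPS (3.64), KO (5.72) and KOLPS (5.55) and not in WT, while H3K4me3 folds were 18.4 in WT and 33.2 in KO. Folds come from separate libraries and are given side by side, without a test.

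Per chromosome, gained sites made up 9.73% of KO SMC1 peaks on X, 0 of 17 on Y and 17.5 to 22.1% on the autosomes except chromosome 12, where they made up 32.1%. Genes with the most gained sites within 10 kb were mostly long. Gm20388, a gene model of 4435 kb on chromosome 8, had 21, of which 2 were kept in KOLPS, beside 72 shared sites. Skint5, of a family expressed in skin and thymus, had 11 gained and 0 shared sites, 4 of them kept. Raet1e, a ligand of the NKG2D receptor, had 10. Fgfr2, the glutamate receptor gene Grm5 and the phosphodiesterase gene Pde4d had 8 each, Dock10 and Pde4b 7 each and 4930469K13Rik 6. Dhx9, an RNA helicase of only 31.9 kb, had 7 gained sites, none of them kept in KOLPS or with H3K27ac, and 1 shared site.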

How the data were processed

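The 34 samples of the series comprise 30 with a peak list (8 antibodies) and 4 inputs. Reads had been aligned to mm10 with BWA, duplicates removed with Picard and peaks called with MACS2. The submitters' processing notes give versions 0.7.12, 1.77 and 2.1.2, from which the study's methods differ. By the methods, peaks were called per sample and biological replicate. The reporting summary says, for the experiments in general, that replicates were later combined. Neither source ties this to a given list. The lists deposited by the authors give each peak's fold, a ratio of its fragments to those around it, with −log10 p-values and −log10 q-values. Labels and methods differ on the STAT5 antibody. Depth is not in the lists: fragments and background were recovered from fold and −log10 p (Poisson, 1 added to both terms of the ratio), matching −log10 p within 0.002. Thresholds and coverage differ between lists, so folds were ranked within a list only, and folds of different lists are set side by side without a test.

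Overlap meant 1 bp shared. A promoter was the 2.5 kb on each side of a gene's start, by its longest transcript, over 55413 genes (GENCODE vM21, GRCm38). The genome sequence was RefSeq GRCm38.p6. Shares have Wilson intervals, differences between sets Newcombe intervals, and KO minus WT differences at the same sites intervals from the sites that changed. Named were the 12 gained sites with the highest −log10 q at places with peaks in fewer than 15 of 30 lists, sites at promoters of the listed genes, the 10 sites of highest fold at protein-coding promoters, the 10 of highest fold with H3K27ac in KO, not WT or WTLPS, and SMC1 in KOLPS, and the 10 genes with the most sites. The same rules were applied outside Igh after the data were seen. Motifs of CTCF, STAT5, PU.1, AP-1, C/EBP, RUNX, IRF, NF-κB and the GC box were searched within 50 bp of summits. IRF matched 3.23% of gained windows outside Igh and 5.12% of shared ones, NF-κB 2.04% and 3.88%, the GC box 1.06% and 0.632%. The members and gene lists were chosen with earlier results of these data known. Python 3.11.15, numpy 2.4.6, pandas 2.3.3 and scipy 1.17.1 were used, and overlap and recovery functions were tested on simulated data. Alternatives tried were the overlap, strength, distance and promoter settings of the closing section, removal of places common to many lists and of chromosomes X and Y and, added later, of Igh.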

Additional observations from a re-analysis of the deposited data

Results flagged for a closer look

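p65, the RelA subunit of NF-κB, was not compared at gained sites above, and its peaks were more numerous in the Igh locus in CTCF-KO cells. The p65 lists held 0 peaks there in WT and 1 in WTLPS, but 53 in KO and 65 in KOLPS. These made up 10.5% of the 504 KO p65 peaks and 3.71% of the 1752 KOLPS peaks. At the 251 gained SMC1 sites of the locus, 28 overlapped a p65 peak in KO and 36 in KOLPS, and 0 in WT or WTLPS. Outside Igh, p65 peaks lay at 3 of 5829 gained sites in KO and 5 in WT, and with LPS at 30 and 29. Over all KO SMC1 peaks the shares were 1.47% in KO and 2.27% in WT, and with LPS 4.78% and 12%. H3K27me3, which the report used only at SMC1 sites and as a count for WT and KO, likewise had more peaks in the locus, 184 in KO and 117 in KOLPS, against 65 in WT and 33 in WTLPS. No list has a replicate, and the cause was not tested.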

How the results depend on the processing

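The number of gained sites stayed within 1.5 times of 6080 under 6 of 7 settings, and was 1188 when KO peaks needed a −log10 p of at least 10. At that threshold 32.3% were kept in KOLPS, 44.6% had H3K27ac in KO and 39.1% in WT, and 43.4% lay at promoters, so that each share depends on the strength required. When sharing needed 50% of the KO peak covered, the 4 shares were 16%, 37.3%, 39.1% and 34%. When only the WT list had to lack the peak, 16.9% were kept and 35.6% and 38.1% had H3K27ac in KO and WT. With no WT or WTLPS SMC1 peak within 1 kb, H3K27ac was at 28.3% in KO and 29.6% in WT and promoters at 29.2%. Without the Igh locus, a setting added after seeing the data, 10.8% were kept and 36.6% had H3K27ac in WT. When 50% of the site had to be covered by the partner peak, 10.7% were kept and 22.9% and 26.7% had H3K27ac in KO and WT, and with H3K27ac peaks of a −log10 p of at least 10 the latter were 21.7% and 21.8%. With promoters of 1 kb to either side the share there was 23.2%, and with the starts of all transcripts 39.6%. H3K27ac shares were lower in KO than in WT under these settings except at a −log10 p of at least 10 for KO SMC1 peaks. In all, 24 alternative values moved beyond their interval or range and 18 did not. No paired analysis was possible because each condition and antibody has 1 list. The depth of the lists limits how firmly the absence of a WT peak can be read at sites of 21 to 24 fragments.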

Other observations

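A second cluster of gained sites lay on chromosome 4 in the Skint genes. Among 500 kb windows with at least 8 KO SMC1 peaks, the window from 113500001 to 114000000, over Skint5, held 9, all of them gained. WT had 1 SMC1 peak there and WTLPS 0, against 9 in KO and 13 in KOLPS, and CTCF peaks 0 in WT and 11 in KO. In the next window, with Skint11, 8 of 10 KO SMC1 peaks were gained, and CTCF peaks numbered 8 in WT and 8 in KO. The other windows in which more than 80% were gained lay in Igh. These windows were looked at after the data had been seen.

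The gained site at Gm21847 on chromosome 5 (15516643 to 15517166), a region of repeated genes, had SMC1 folds of 7.73 in KO and 6.6 in KOLPS. CTCF folds there were 4.2 in WT and 12.9 in KO, and with LPS 2.91 and 7.07, and a STAT5 peak was called in KO only (5.55).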
